A study of Mus musculus with 6 samples.

Results

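Imprinted growth genes were examined in Lin- c-Kit+ fetal liver (FL) cells of embryos with and without a Cre-driven deletion of *Hnrnpl*, the gene of the RNA binding protein hnRNP L. The 10 genes are *H19*, *Meg3*, *Grb10* and *Igf2r*, which are expressed from the maternal allele in most mouse tissues, and *Igf2*, *Dlk1*, *Peg3*, *Mest*, *Plagl1* and *Ndn*, which are expressed from the paternal allele. They were matched by symbol to 10 of the 38293 Ensembl genes with deposited counts, and they were chosen with their difference between the genotypes already known. All values of this difference are therefore given as a description, without a test. Cells came from C57BL/6 embryos at embryonic day 14.5, 1 embryo per library, of which 3 were hnRNP L wild-type (wt replicates 1 to 3) and 3 were VavCre+ hnRNP L fl/fl (hnRNP L deficient replicates 1 to 3). In the latter, a Cre transgene driven by the Vav promoter, which is active in the blood lineages, removes floxed *Hnrnpl*. Whether cells of other lineages keep the gene was not measured here. The labels call the controls wild-type, whereas a figure legend of the study gives them floxed *Hnrnpl* alleles, and the sources used here do not say whether they carried the Cre transgene.

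Imprinted genes carry DNA methylation marks set in one parent's germ cells, and only the allele inherited from the mother or from the father is transcribed. Several of them act on a common growth pathway, in which the ligand IGF2 signals through the IGF1 receptor and the insulin receptor, IGF2R removes IGF2 from the cell surface and the adaptor GRB10 dampens receptor signaling. *H19* and *Igf2* share an imprinting control region and enhancers, and *Meg3* and *Dlk1* form a second such pair. In fetal liver, hepatoblasts are well known for their expression of *H19*, *Igf2* and *Dlk1*, and these domains have also been studied in HSCs. The counts did not separate the parental alleles, so the expressed allele is background knowledge here and was not measured.

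For 4 of the 10 genes, a known hosted microRNA gene is shown, because mature microRNAs are small RNAs that can be processed from these transcripts. The 10 genes were not searched for further microRNA genes. Sequences and positions are from RefSeq (GRCm38.p6), and the capitals mark the seed, bases 2 to 8 from the 5′ end.
miR-675-5p (*H19*): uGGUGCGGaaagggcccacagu
miR-675-3p (*H19*): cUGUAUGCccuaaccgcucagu
miR-483-5p (*Igf2*): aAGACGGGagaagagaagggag
miR-483-3p (*Igf2*): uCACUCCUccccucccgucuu
miR-770-5p (*Meg3*): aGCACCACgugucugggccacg
miR-770-3p (*Meg3*): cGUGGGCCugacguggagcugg
miR-335-5p (*Mest*): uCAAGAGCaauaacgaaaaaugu
miR-335-3p (*Mest*): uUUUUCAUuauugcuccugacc
The 8 seeds all differ from each other. The sequence of miR-675-5p lies in an exon of *H19* on the minus strand at chr7:142577112-142577133, and that of miR-770-5p in an exon of *Meg3* on the plus strand at chr12:109563710-109563731. The sequence of miR-483-5p lies inside *Igf2* but outside its annotated exons at chr7:142654968-142654989, on the minus strand. That of miR-335-5p lies inside *Mest* but outside its exons at chr6:30741314-30741336, on the plus strand. The poly(A) libraries do not capture mature microRNAs, so the values below are those of the host transcripts. On each of these microRNA genes 0 reads were counted in the 6 libraries. How reads over both a microRNA gene and a host exon were counted is not given, so nothing is read from this.

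Each library held between 55952160 and 76157226 reads on genes, and 3 reads equalled 0.0402 to 0.054 CPM (counts scaled by the TMM-normalized size of the library). *Hnrnpl* itself had 527 to 552 CPM in the wt libraries and 242 to 288 CPM in the deficient libraries, which was a log2 fold change of -1.01 ± 0.09 (SE) with an edgeR adjusted p = 0.00724. *Hnrnpl* RNA thus remained in the deficient libraries, and the protein was not measured in them. The gene count does not separate RNA of intact alleles from RNA of deleted alleles. For FL with the VavCre transgene the study shows the deletion by PCR on genomic DNA and gives a Western blot of the protein. It describes ablation in adult bone marrow as less efficient than in FL. The study raises the possibility that cells with incomplete deletion and residual protein remained and made splicing events difficult to detect. The labels name the tissue as whole embryo and the source as FL cells, whereas the study's methods describe sorted Lin- c-Kit+ FL cells. *Kit* was at 325 to 655 CPM, the neural gene *Sox2* and the muscle gene *Myod1* had 0 reads in every library, and 6 muscle markers summed to at most 0.27 CPM. The 7 neural markers summed to 2.53 to 3.85 CPM, most of it from *Tubb3* (2.4 to 3.76 CPM). The libraries wt replicate 2 and hnRNP L deficient replicate 1 stood apart. In wt replicate 2, 6 markers of granulocyte precursors summed to 7930 CPM, against 235 to 1430 CPM in the other libraries, and its reads lay closer to the 3′ ends of transcripts. Deficient replicate 1 had the lowest sum of hepatoblast markers, and also of granulocyte precursor (235 CPM), macrophage (6.15 CPM) and mesenchymal markers (7.89 CPM). The sums of endothelial, erythroid and stem and progenitor markers were lowest in other libraries. For the 10 genes and the hepatoblast markers, values without each of these libraries are given below.

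In wt cells *Grb10* was the most highly expressed of the 10 genes. Levels were compared per kilobase of exon, and the range over the wt embryos separated most neighbours in this order. *Grb10* was at 42.4 ± 9.2 RPKM (CPM per kilobase of exon, SD, n = 3). *H19*, at 17.7 ± 2.33 RPKM, and *Igf2r*, at 11.4 ± 4.34 RPKM, followed, and their ranges overlapped. *Dlk1* was at 3.97 ± 0.639 RPKM and *Igf2* at 2.4 ± 1.01 RPKM, again with overlapping ranges. The other genes were lower and their neighbouring ranges did not overlap, with *Peg3* at 1 ± 0.211, *Ndn* at 0.715 ± 0.17, *Mest* at 0.407 ± 0.086, *Meg3* at 0.202 ± 0.0688 and *Plagl1* at 0.0896 ± 0.0185 RPKM. The order by length thus places the maternally expressed *Grb10*, *H19* and *Igf2r* above all 6 paternally expressed genes, and the maternally expressed *Meg3* below 5 of them.

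**Figure D1:**
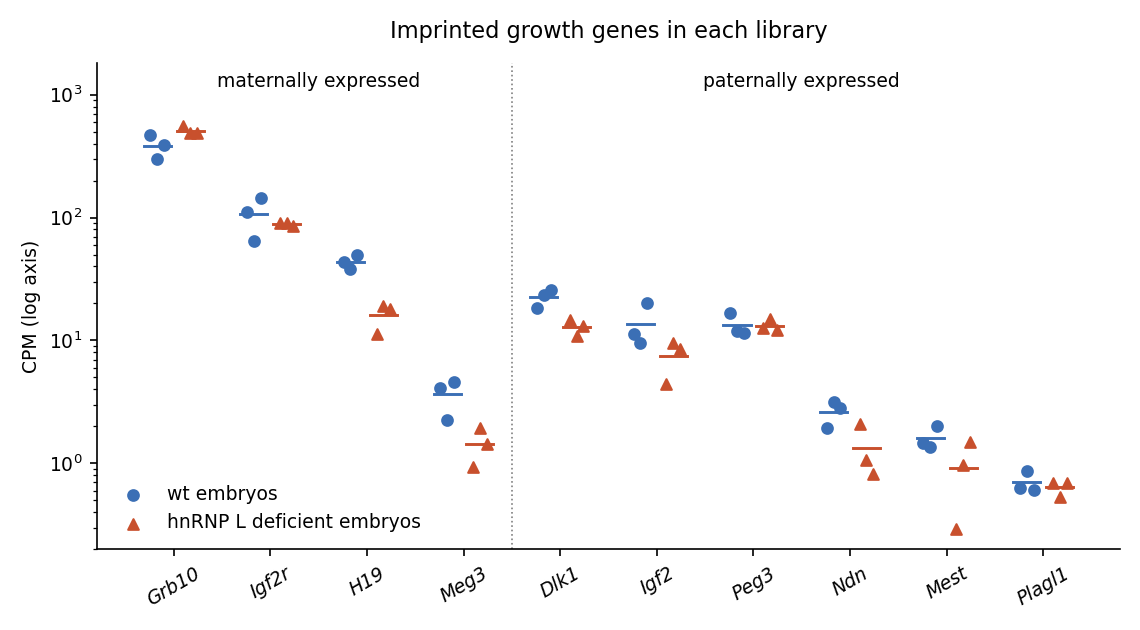
CPM on a log axis for each of the 10 imprinted growth genes, with 1 point per library (blue circles, 3 wt embryos; orange triangles, 3 hnRNP L deficient embryos, replicates 1 to 3 from left to right) and a bar at the group mean. The deficient libraries lie below every wt library for *H19*, *Meg3*, *Dlk1* and *Igf2*, above every one for *Grb10*, and overlap with wt for the other 5 genes. CPM are not divided by transcript length, so heights may be compared within a gene but not between genes.

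The 2 long non-coding RNAs had the most negative fold changes of the 10 genes. *H19* (ENSMUSG00000000031, chromosome 7 of GRCm38 from 142575529 to 142578143, minus strand), a non-coding RNA of the *Igf2* domain, was found at 43.7, 37.9 and 49.4 CPM in the wt libraries (in the order of replicates 1 to 3, as below) and at 11.3, 19.1 and 17.9 CPM in the deficient libraries. All 3 deficient libraries were far below all wt libraries, and replicate 1 was the lowest. The mean was 43.6 ± 5.73 CPM (SD, n = 3) in wt and 16.1 ± 4.17 CPM (SD, n = 3) in deficient cells, a log2 fold change of -1.44 ± 0.21 (SE), or a level 2.71-fold lower. *Meg3* (ENSMUSG00000021268, chromosome 12 from 109541001 to 109571726, plus strand), a non-coding RNA of the *Dlk1* domain, had 4.09, 2.25 and 4.62 CPM in wt and 0.932, 1.93 and 1.45 CPM in deficient cells. Here too the groups did not overlap, although wt replicate 2 and deficient replicate 2 were close, and deficient replicate 1 was again the lowest. The log2 fold change of *Meg3* was -1.35 ± 0.38 (SE), -1.11 without deficient replicate 1 and -1.6 without wt replicate 2. That of *H19* was -1.24 and -1.53 without these libraries. Without wt replicate 3, the highest library for both genes, it was -1.14 for *Meg3* and -1.34 for *H19*. The long non-coding RNA *Rian*, which lies downstream of *Meg3* in the same domain, had 4.1, 2.17 and 2.83 CPM in wt and 0.714, 1.68 and 1.58 CPM in deficient cells. *Rian* is not one of the 10 genes. Its log2 fold change of -1.19 ± 0.4 (SE) did not pass (edgeR adjusted p = 0.0752). *Mirg*, another non-coding RNA of this domain, was near the detection limit, with 4 to 15 reads per library.

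The growth factor gene *Igf2* (ENSMUSG00000048583, chromosome 7 from 142650766 to 142666816, minus strand) had 11.2, 9.62 and 20.3 CPM in wt and 4.39, 9.47 and 8.53 CPM in deficient cells. The deficient libraries were all below the wt libraries, but replicate 2 was just under wt replicate 2. The log2 fold change was -0.88 ± 0.38 (SE), -0.48 without wt replicate 3, -0.6 without deficient replicate 1 and -1.08 without wt replicate 2. *Dlk1* (ENSMUSG00000040856, chromosome 12 from 109452823 to 109463336, plus strand), which encodes a membrane protein of the Delta-like family, had 18.5, 23.3 and 25.6 CPM in wt and 14.8, 10.8 and 13 CPM in deficient cells. The groups were separate, and deficient replicate 1 was the highest of the 3 deficient libraries and not the lowest as for *H19*, *Meg3* and *Igf2*. The log2 fold change of *Dlk1* was -0.81 ± 0.17 (SE), -0.91 without deficient replicate 1 and -0.78 without wt replicate 2.

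The receptor and adaptor of the pathway did not follow *H19* and *Igf2*. *Igf2r* (ENSMUSG00000023830, chromosome 17 from 12682406 to 12769664, minus strand), the scavenger receptor of IGF2, had 111, 63.9 and 144 CPM in wt and 89.6, 91 and 86.1 CPM in deficient cells. The deficient libraries lay close together, inside the wide range of the wt libraries, of which wt replicate 2 was the lowest. The log2 fold change was -0.26 ± 0.27 (SE), -0.52 without wt replicate 2, -0.26 without deficient replicate 1 and 0.03 without wt replicate 3. *Grb10* (ENSMUSG00000020176, chromosome 11 from 11930508 to 12038683, minus strand) had 466, 299 and 391 CPM in wt and 551, 489 and 485 CPM in deficient cells. It was the only gene of the 10 with all deficient libraries above all wt libraries, with a mean of 385 ± 83.7 CPM in wt and 509 ± 37.1 CPM in deficient cells (SD, n = 3 each). The log2 fold change was 0.4 ± 0.16 (SE) and 0.25 without wt replicate 2, the lowest library, and 0.34 without deficient replicate 1.

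The remaining paternally expressed genes were lowly expressed, apart from *Peg3*. *Peg3* (ENSMUSG00000002265, chromosome 7), which encodes a zinc finger protein, had 16.6, 12 and 11.4 CPM in wt and 12.7, 14.9 and 12.1 CPM in deficient cells, with a log2 fold change of -0.01 ± 0.18 (SE), 0.03 without deficient replicate 1 and -0.08 without wt replicate 2. The libraries of the 2 groups were interspersed. *Plagl1* (ENSMUSG00000019817, chromosome 10), a zinc finger transcription factor, had 35 to 52 reads per library in both groups and a log2 fold change of -0.12 ± 0.32 (SE), -0.18 without deficient replicate 1 and 0.06 without wt replicate 2. *Mest* (ENSMUSG00000051855, chromosome 6), which encodes a protein of the hydrolase fold family, had 81, 82 and 145 reads in wt and 19, 63 and 111 reads in deficient cells, or 1.46, 1.37 and 2 CPM against 0.295, 0.964 and 1.49 CPM. Deficient replicate 1 was far below the rest, while replicate 3 lay inside the wt range. The log2 fold change of *Mest* was -0.81 ± 0.54 (SE). It was -0.39 without deficient replicate 1, -1.34 without deficient replicate 3, -0.91 without wt replicate 2 and -0.62 without wt replicate 3. *Ndn* (ENSMUSG00000033585, chromosome 7), which encodes the MAGE family protein Necdin, had 1.94, 3.17 and 2.81 CPM in wt and 2.1, 1.06 and 0.817 CPM in deficient cells. In *Ndn* it was deficient replicate 1 that lay inside the wt range, and replicates 2 and 3 were below it. The log2 fold change was -1 ± 0.4 (SE), -1.49 without deficient replicate 1 and -0.85 without wt replicate 2.

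Maternally and paternally expressed genes did not separate by direction. The 4 maternally expressed genes had a median log2 fold change of -0.8 (range -1.44 to 0.4) and the 6 paternally expressed genes a median of -0.81 (range -1 to -0.01), beside -0.026 over all 14396 genes tested. Both classes contained genes with lower libraries throughout and genes whose libraries overlapped, and the rise of *Grb10* libraries was among the maternal genes. All 10 genes passed the filter on low counts. At an adjusted p-value under 0.05, 3 genes (*H19*, *Meg3* and *Dlk1*) would be called lower, which is a count beside 9.85% of all tested genes called lower and 9.32% called higher (19.2% in either direction). Every deficient library was below every wt library in 4 genes and above in 1 gene, beside 22.7% of all tested genes in each direction. Since the same contrast chose the genes, nothing is read from these counts. The same 3 genes were called under each other normalization, filter and tool tried, beside 5.71% to 15.5% of all tested genes called lower. When wt replicate 3 or any deficient library was left out, 0 of the 10 genes were called. In those fits 0% to 0.0135% of all tested genes were called lower and 0.0341% to 0.101% higher. Without wt replicate 2, *Igf2r* was called as well, beside 12.7% of all tested genes called lower. Without wt replicate 1 the calls were *H19*, *Dlk1* and *Grb10*, beside 16.8% called lower and 15.7% called higher. Nothing is read from the calls in these fits either.

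**Figure D2:**
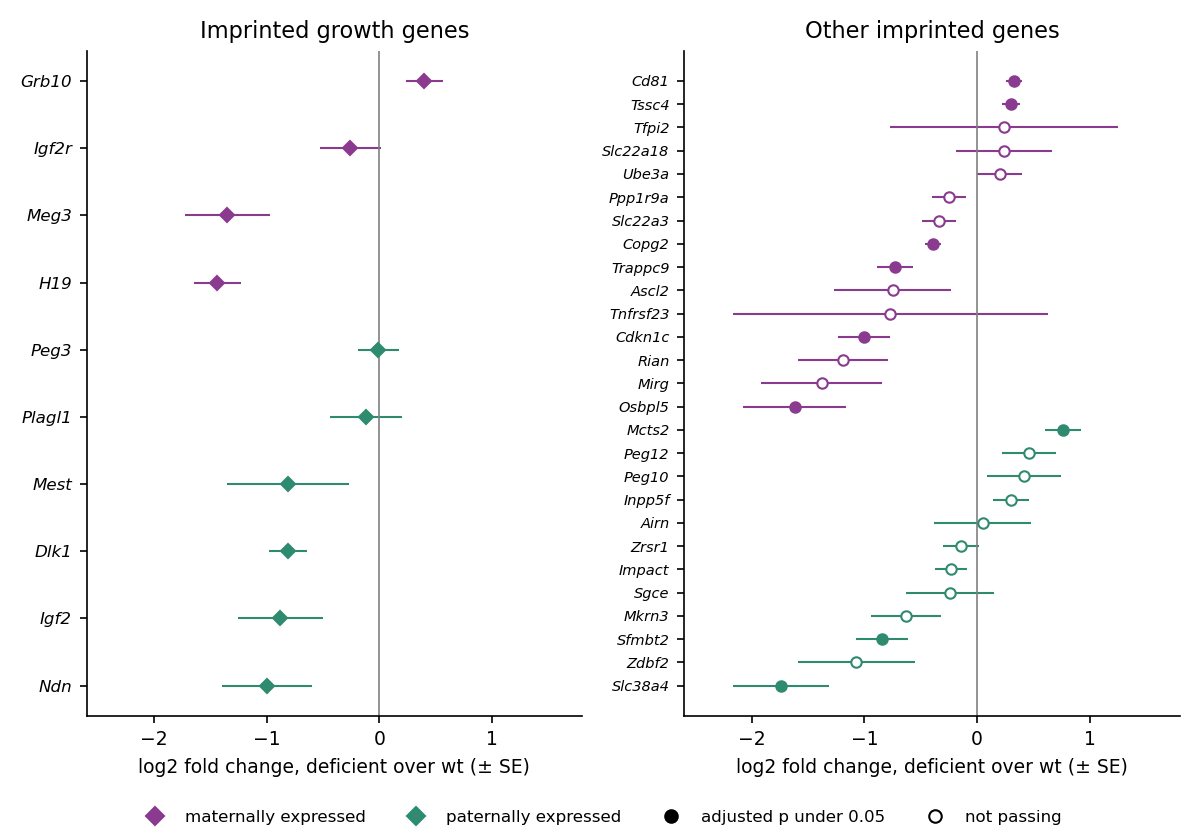
Log2 fold change of hnRNP L deficient over wt cells with its standard error (3 embryos per group) for the 10 imprinted growth genes (left, diamonds, drawn without calls because the genes were chosen on this contrast) and for 27 other imprinted genes (right, filled circles at an edgeR adjusted p under 0.05). Purple marks maternally and green paternally expressed genes. Both colors are found on both sides of 0 on the right, and *H19* at -1.44 and *Grb10* at 0.4 mark the ends on the left.

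Within the imprinted domains, the non-coding RNA and its coding neighbour were compared as a ratio of RPKM in each library. The ratio of *H19* to *Igf2* was 9.04, 9.16 and 5.66 in wt and 5.99, 4.68 and 4.88 in deficient cells. Most wt libraries were higher, but deficient replicate 1 lay just above wt replicate 3, so that the groups overlapped. The ratio of *Meg3* to *Dlk1* was 0.069, 0.0303 and 0.0564 in wt and 0.0197, 0.0559 and 0.0348 in deficient cells and overlapped as well. The ratio of *Rian* to *Meg3* was 0.608 to 0.996 in wt and 0.761 to 1.08 in deficient cells. *Rian* and *Meg3*, both non-coding RNAs of the *Dlk1* domain, thus kept their ratio across the genotypes within the spread between embryos.

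Genes of hepatoblasts, the epithelial cells of the fetal liver, had lower values in the deficient libraries, although most did not pass the test. The 15 markers listed for them include *Afp* and *Alb*, which encode the plasma proteins alpha-fetoprotein and albumin. Their CPM gave a sum of 187, 132 and 269 in the wt libraries and of 29.2, 84.1 and 79.3 in the deficient ones, so that every deficient library was lower and replicate 1 was the lowest. *Afp* alone had 74.6, 50.1 and 100 CPM in wt and 9.61, 32.6 and 32 CPM in deficient cells (log2 fold change -1.6 ± 0.52 (SE) with an edgeR adjusted p = 0.0836). *Apoc3* was at or near 0 in every library. Of the 14 markers tested, 2 (*Ttr* and *Krt18*) fell at an adjusted p under 0.05 by edgeR and 0 rose, beside 9.85% of all tested genes called lower. In 13 of the 14 the groups did not overlap, with the deficient libraries lower, beside 22.7% of all tested genes. The list was chosen with earlier results of these data known and its genes mark the same cells, so nothing is read from these counts. Without deficient replicate 1, 0 of the 14 were called by edgeR, beside 0.0135% of all tested genes called lower. Their median log2 fold change was then -1.18 in place of -1.53. Without wt replicate 2 this median was -1.68 and 5 were called lower, beside 12.7% of all tested genes. In bulk cells, fewer hepatoblasts in a sorted sample and less RNA per hepatoblast cannot be told apart.

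The order of the libraries was the same in part of the 10 genes and of the hepatoblast markers. *H19*, *Meg3*, *Igf2* and *Mest* were each lowest in deficient replicate 1 and highest in wt replicate 3, and so were 10 of the 14 tested hepatoblast markers, beside 4.45% of all tested genes. *Dlk1*, *Ndn*, *Grb10*, *Igf2r*, *Peg3* and *Plagl1* did not show this order. The low point in deficient replicate 1 was not particular to hepatoblast markers (12 of 14 tested). It was also found in 6 of 6 granulocyte precursor and 6 of 8 macrophage markers tested, of which 0 and 2 were also highest in wt replicate 3. The 10 genes and the marker list were chosen with earlier results of these data known. A gene lower in deficient cells tends to be lowest in a deficient library and highest in a wt library. The share over all tested genes is thus no baseline for the shared order, and nothing is read from it. The part of hepatoblast RNA in the differences of *H19*, *Meg3*, *Igf2* and *Mest* was not tested.

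**Figure D3:**
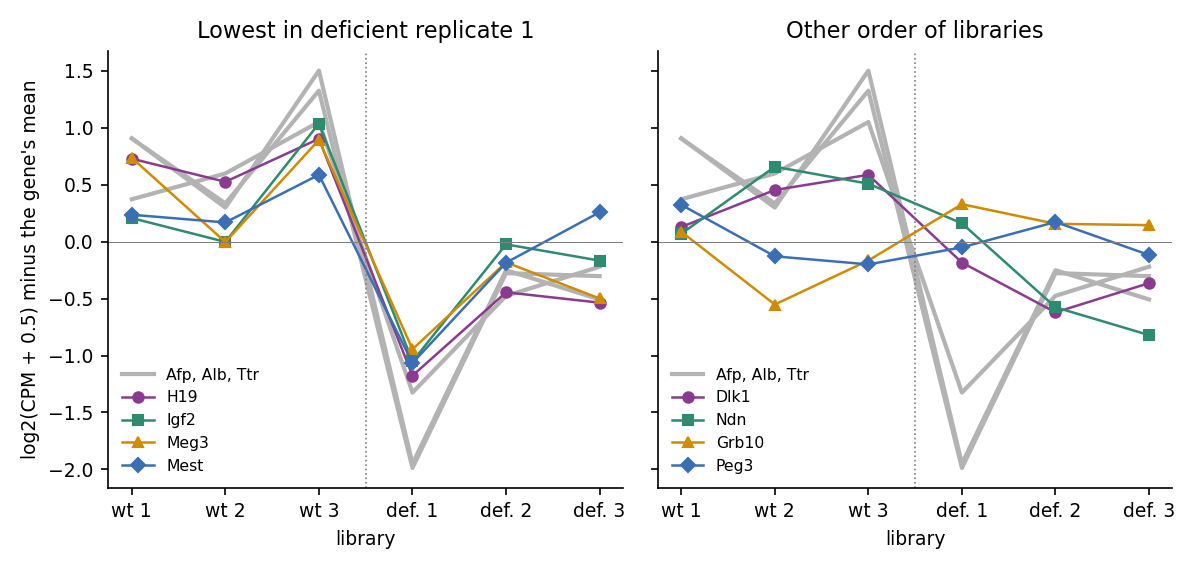
Log2(CPM + 0.5) of single genes minus the gene's mean over the 6 libraries, plotted for wt replicates 1 to 3 and hnRNP L deficient (def.) replicates 1 to 3, with the hepatoblast genes *Afp*, *Alb* and *Ttr* in grey in both panels. *H19*, *Igf2*, *Meg3* and *Mest* (left) share the low point at deficient replicate 1 and the high point at wt replicate 3 with the grey lines, whereas *Dlk1*, *Ndn*, *Grb10* and *Peg3* (right) do not.

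The levels were also expressed relative to *Afp*, as a ratio of RPKM. The fold change of *Afp* was more negative than that of any of the 10 genes, so that the choice of *Afp* itself raises the ratios in deficient cells. The ratio of *H19* to *Afp* was 0.801, 1.04 and 0.674 in wt and 1.61, 0.801 and 0.766 in deficient cells. Deficient replicates 2 and 3 were inside the wt range and replicate 1 was above it. The ratio of *Igf2* to *Afp* was 0.0886, 0.113 and 0.119 in wt and 0.269, 0.171 and 0.157 in deficient cells, so that here every deficient library was higher. The ratio of *Dlk1* to *Afp* was 0.148 to 0.277 in wt and 0.915, 0.197 and 0.242 in deficient cells, with only replicate 1 outside the wt range. For *Meg3* the ratio to *Afp* was 0.00837 to 0.0102 in wt and 0.00842 to 0.018 in deficient cells, with overlap. The ratio of *Mest* to *Afp* was 0.0167 to 0.0233 in wt and 0.0253 to 0.0397 in deficient cells, without overlap. The ratio of *Grb10* to *Afp* was 1.44 to 2.32 in wt and 5.56 to 21.3 in deficient cells. The ratio of *Alb* to *Afp*, both hepatoblast genes, ranged from 1.33 to 1.54 in wt and from 1.18 to 1.39 in deficient cells.

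For the members of the *H19*-*Igf2* and *Dlk1*-*Meg3* domains, the genes with the most similar profile were sought among 11618 genes with a mean of at least 1 CPM, by the root mean square difference of centred log2(CPM + 0.5) over the 6 libraries. *H19* was closest to *Trim2* (difference 0.11), which encodes a ubiquitin ligase, followed by *Spon2*, the fibrinogen gene *Fga*, the prothrombin gene *F2* and *Ttr*. *Igf2* was closest to the vitronectin gene *Vtn* (0.102), followed by *Itih3*, the fibrinogen gene *Fgg*, *Serpinf2* and *Cela1*. *Meg3* was closest to *Mgll* (0.121), which encodes a monoglyceride lipase, and *Frmpd1*, *Itih2* and *Fga* were also among its 5 nearest genes. *Dlk1* had other neighbours, *Rsph3b* (0.044), *Rufy3*, the mTOR inhibitor gene *Deptor*, *Slc25a23* and the imprinted gene *Trappc9*. *Ttr*, *Vtn* and *Fgg* are also on the list of hepatoblast markers. With 6 libraries these distances describe the samples only. The profile includes the difference between the genotypes, and the genes and the marker list were chosen with earlier results of these data known. Genes with a similar difference thus tend to be near each other, and nothing is read from the markers among the neighbours.

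Exon usage, a readout that the choice of the genes did not use, was examined in the 5 libraries with exon bin counts used here, the 3 wt libraries and deficient replicates 2 and 3. The units of the 10 genes held 286 exon bins, of which 55 had 0 reads in all libraries and 155 had enough reads to be tested. With edgeR's diffSpliceDGE, 0 of the 155 bins passed an adjusted p under 0.05, and 0 had an unadjusted p under 0.05. Of all 176996 bins tested, 0.0288% passed and 1.03% had an unadjusted p under 0.05. With limma's diffSplice 0 of the 155 bins passed and 1 had an unadjusted p under 0.05, beside 218 and 4734 of all 176996 bins. Without wt replicate 2, these counts with edgeR were 0 and 4 of 157 bins, beside 158 and 4470 of all 176099 bins. In *Igf2r*, with 51 tested bins, log2 changes in usage lay between -0.27 and 0.36. In *Grb10*, with 23 tested bins, they lay between -0.1 and 0.84, and in *Dlk1*, with 24, between -0.58 and 0.47. The widest change, of -1.67 in bin 15 of *Meg3*, came from a unit in which the counting merged *Meg3* with 2 other genes, and that of *H19* merged 2 genes. *Ndn* has 1 bin, so that no usage could be computed.

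The position of reads along the transcript was compared for *Igf2r*, whose level was lowest in wt replicate 2. The tested bins of *Igf2r* were split in the middle of their order, and the share of reads on the 5′ bins was 38.8%, 24.2% and 36.1% in the wt embryos, against 38.5% and 34.6% for deficient replicates 2 and 3. The share in wt replicate 2 was the lowest. On the bin at the 3′ end wt replicate 2 had 23.8 CPM, close to 25.3 in wt replicate 1, whereas on the 5′ bins it had 25.9 CPM, against 74.3 in wt replicate 1. On this 3′ bin wt replicate 3 had 34.3 and the deficient libraries 22.7 and 21.1 CPM, so that both deficient libraries were below the 3 wt libraries there, while the gene counts overlapped. The same direction was seen in *Grb10*, with 22.3% of reads on the 5′ bins in wt replicate 2 and 26.1% to 26.9% in the other libraries. It was also seen in *Peg3*, with 7.16% against 10.2% to 17.3%, and in *Dlk1*, with 46.4% against 47.9% to 55.9%. In *Igf2* the share in wt replicate 2 was instead the highest, at 24.4% against 20.3% to 23.5%. In *H19* it lay inside the range of the other libraries, at 51.9% against 46% to 52.9%. On the 3′ bin of *Grb10* the deficient libraries had 272 and 270 CPM and the wt libraries 254, 191 and 208. Over 5270 units with at least 10 well covered bins, the median share on the 5′ bins was 33.2% in wt replicate 2 and 38% to 38.6% in the other libraries, and wt replicate 2 was the lowest in 4292 of these units.

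**Figure D4:**
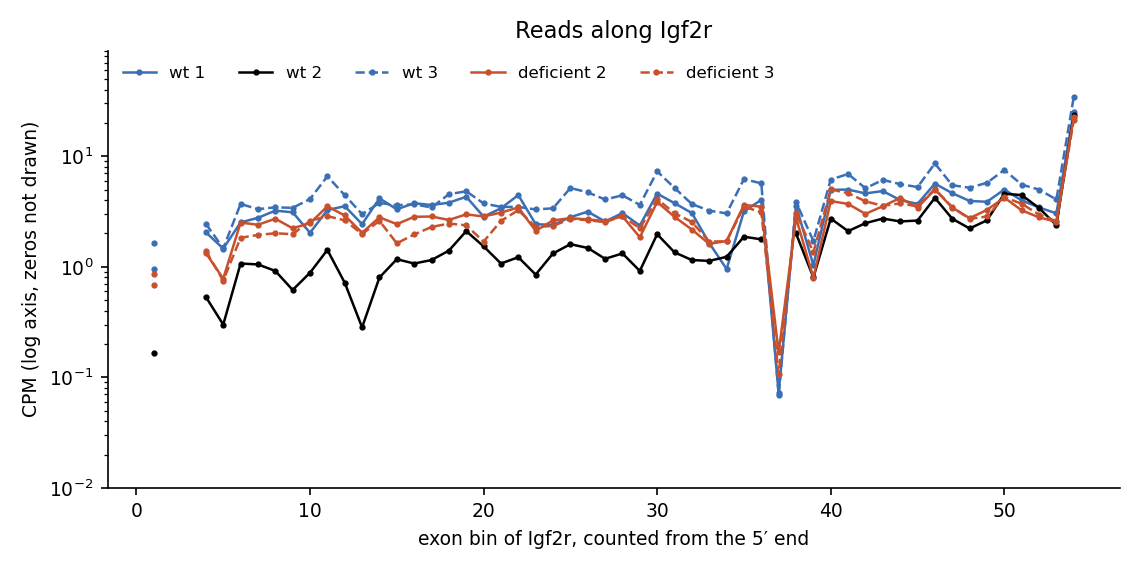
CPM on each exon bin of *Igf2r* from the 5′ to the 3′ end, on a log axis, in wt replicates 1 to 3 and hnRNP L deficient replicates 2 and 3 (bins without reads are not drawn). The line of wt replicate 2 (black) runs below the other libraries along most of the transcript and meets them at the last bin, where wt replicates 1 and 2 had 25.3 and 23.8 CPM.

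To see whether other imprinted genes moved, 51 genes known to be imprinted in the mouse were listed. The imprinting of several of them is restricted to certain tissues. Among the genes listed, 46 were matched to a row of counts, 9 of them had 0 reads in all libraries, and 27 were tested. By edgeR at an adjusted p under 0.05, 3 rose and 6 fell, and 18 did not pass (background 9.32% and 9.85%). The median log2 fold change was -0.25. Of the 15 maternally expressed genes tested 2 rose and 4 fell, and of the 12 paternally expressed genes 1 rose and 2 fell. With total counts in place of the TMM normalization, 1 rose and 6 fell, and over all genes 37.8% of the calls were higher in place of 48.6%.

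Among the maternally expressed genes on this list, *Copg2*, which encodes a coat protein of vesicles, fell from 85.1 ± 2.34 to 65 ± 2.7 CPM (SD, n = 3 each, edgeR adjusted p = 0.0161). *Trappc9*, a subunit of a trafficking complex, had 25.1, 33.6 and 36.8 CPM in wt and 21.2, 18.2 and 18.2 CPM in deficient cells (log2 fold change -0.73 with an edgeR adjusted p = 0.0258). *Cdkn1c*, the cyclin-dependent kinase inhibitor p57, had 3.17, 3.55 and 2.74 CPM in wt and 1.34, 1.79 and 1.61 CPM in deficient cells. All 3 deficient libraries were well below the wt libraries, and the log2 fold change was -1 ± 0.23 (SE, edgeR adjusted p = 0.0289). *Osbpl5* fell by 1.62 on the log2 scale (edgeR adjusted p = 0.04997) and did not pass without robust estimation (0.0524) or without wt replicate 2 (0.0721). The tetraspanin gene *Cd81*, with the highest CPM over both groups on the maternal list, rose from 128 ± 8.51 to 161 ± 2.72 CPM (edgeR adjusted p = 0.0276), and its neighbour *Tssc4* rose from 45.8 ± 2.8 to 56.5 ± 1.98 CPM (edgeR adjusted p = 0.0355). Both of these rises were small, and with total counts neither passed (edgeR adjusted p = 0.0583 for *Cd81* and 0.0924 for *Tssc4*). *Cdkn1c*, *Cd81*, *Tssc4* and *Osbpl5* lie near each other on chromosome 7 and thus did not move in 1 direction.

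Of the paternally expressed genes, *Slc38a4*, an amino acid transporter gene of the liver, had 2.02, 1.02 and 0.977 CPM in wt and 0.264, 0.474 and 0.455 CPM in deficient cells (log2 fold change -1.74 ± 0.43 (SE) with an edgeR adjusted p = 0.0344). *Sfmbt2*, a Polycomb group gene, fell by 0.84 on the log2 scale (edgeR adjusted p = 0.0466) and did not pass with no filter (0.0593) or without wt replicate 2 (0.0599). *Mcts2*, an intronless copy of a translation factor gene, rose from 13.9 ± 2.79 to 23.6 ± 1.96 CPM (edgeR adjusted p = 0.025), but reads may be shared with its close paralog *Mcts1*. *Impact*, the highest of the paternally expressed genes in CPM, had 27.4 to 37.5 CPM in wt and 24.3 to 28.8 CPM in deficient cells (log2 fold change -0.23 with an edgeR adjusted p = 0.261). *Airn*, the paternally expressed antisense RNA at *Igf2r*, had 1.44, 0.883 and 2.44 CPM in wt and 1.09, 2.1 and 1.77 CPM in deficient cells, and the groups overlapped. *Airn* overlaps *Igf2r*, *Igf2os* overlaps *Igf2* and *Copg2* overlaps *Mest* on the opposite strand. The library kit keeps the strand, but the sources used here do not give the strand setting of the counting, so reads in these overlaps may be uncertain.

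Around *Igf2* in the growth pathway, 31 genes were listed, of which 16 were tested. By edgeR at an adjusted p under 0.05, 0 rose and 3 fell (background 9.32% and 9.85%). DESeq2 called 2 higher and 5 lower, beside 14.3% and 15.5% of all tested genes. Of the receptors, *Insr* (the insulin receptor) had 57.8, 68.7 and 61.7 CPM in wt and 33, 32.8 and 31.4 CPM in deficient cells. The libraries of the 2 groups were far apart, with a log2 fold change of -0.95 ± 0.09 (SE, edgeR adjusted p = 0.0085). *Igf1r*, the receptor for IGF1 and IGF2, had 60.5 ± 9.91 CPM in wt and 64.7 ± 5.76 CPM in deficient cells (SD, n = 3 each) with overlapping libraries. The ligand genes were low or absent, with *Igf1* at 5 to 60 reads per library and *Ins1* and *Ins2* at 0 reads.

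Among the adaptors downstream of these receptors, *Pik3r1*, the regulatory subunit of PI3 kinase, fell from 135 ± 2.42 to 77.2 ± 7.52 CPM (SD, n = 3 each, edgeR adjusted p = 0.00985). *Akt1*, the adaptor list's gene with the highest CPM, had 217 to 237 CPM in wt and 260 to 266 CPM in deficient cells (log2 fold change 0.22 with an edgeR adjusted p = 0.0623). *Irs2*, an insulin receptor substrate, had 35.2, 7.98 and 27.6 CPM in wt and 63.5, 56 and 53.3 CPM in deficient cells, without overlap but with a wide wt group (edgeR adjusted p = 0.134). Of the IGF binding proteins, *Igfbp4* had 52.8, 276 and 87.4 CPM in wt and 27.3, 39.1 and 39.3 CPM in deficient cells (edgeR adjusted p = 0.09). The library with the highest *Igfbp4*, wt replicate 2, was also that with the most RNA of granulocyte precursor genes, whose part in this value was not tested. Of the proteins that bind *Igf2* mRNA, *Igf2bp2* fell from 31.9 ± 6.25 to 15.8 ± 3.34 CPM (edgeR adjusted p = 0.0213). *Igf2bp1*, the highest of them in CPM, had 171, 115 and 98.9 CPM in wt and 190, 163 and 152 CPM in deficient cells (edgeR adjusted p = 0.209), and *Igf2bp3* differed by -0.42 on the log2 scale (edgeR adjusted p = 0.067). Each call named here for the other imprinted genes and for the growth pathway passed in at most 2 of the 6 fits that left out 1 library.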

How the data were processed

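RNA from sorted Lin- c-Kit+ FL cells of 3 wt and 3 VavCre+ hnRNP L fl/fl embryos was sequenced as poly(A) libraries. Alignment to GRCm38 was done by the authors with TopHat2 2.0.10, and they counted reads per gene with HTSeq and per exon bin. They deposited these counts without normalization. The annotation release and counting options are not given in the sources used here. Between 39.8% and 44.7% of the reads in a file did not align uniquely and were left out.

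The 10 genes and all lists were chosen with earlier results of these data known. Genes named from the lists were those called (at most 8 per group of lists) and the highest in CPM of each list, and *Osbpl5*, *Rian*, *Mirg*, *Airn*, *Igf1*, *Ins1*, *Ins2*, *Irs2*, *Igf2bp3*, *Dnmt1*, *Setdb1*, *Zfp57*, *Ctcfl*, *Dppa3* and *Tubb3* were added after their values were seen. Counts were tested with edgeR 4.0.16 (R 4.3.3) by the quasi-likelihood test with TMM normalization, the default filter (14396 of 38293 genes) and Benjamini-Hochberg adjustment. Standard errors were derived from the fold change and the F statistic (log2 fold change over root F). RPKM used exon lengths of GENCODE M21. Bin usage was tested by diffSpliceDGE for bins averaging 10 reads or more. Alternatives were DESeq2 1.42.0, limma 3.58.1, other normalizations and filters, and leaving out each library. In simulated data, with 4-fold changes, 184 of the 186 changed genes that passed the filter and 169 of 200 changed bins were recovered. False calls were 5 of 14300 unchanged genes and 23 of 31544 unchanged bins. The simulation used a fixed dispersion, the best covered bin of a unit, changes larger than those of the 10 genes and no outlying library. It thus checks the procedure and does not give the power in these data. Exon bins of deficient replicate 1 were not analysed here. For genes with many reads the spread between embryos, more than counting error, limited the precision. For genes with few reads, such as *Plagl1* with 35 to 52 reads per library, counting error was not small beside this spread. Of the genes nearest to *Meg3* in profile, 1 is not reported here.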

Additional observations from a re-analysis of the deposited data

How the results depend on the processing

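The calls depended on the libraries included. With 1 library left out, calls over all genes ranged from 5 to 2312 higher and from 0 to 2479 lower, and nearly all were lost without wt replicate 3 or any deficient library. The cause was not tested. In the same fits, the other imprinted genes gave 0 to 5 higher and 0 to 6 lower calls, the growth pathway genes 0 to 2 and 0 to 7, and the imprint maintenance genes 0 to 2 and 0 to 1. The median log2 fold change of the maternally expressed growth genes ranged from -1.02 to -0.56 and that of the paternally expressed ones from -0.9 to -0.49. *Igf2r* (-0.52 to 0.03), *Peg3* (-0.11 to 0.18) and *Plagl1* (-0.22 to 0.06) changed sign. Exon bins of the 10 genes gave 0 calls in the 3 fits that left out a wt library. The counts of hepatoblast markers without 1 library were added after seeing the data.

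With DESeq2, 2064 genes were higher and 2236 lower (edgeR 1341 and 1418), and the growth pathway gave 2 higher and 5 lower calls. With total counts 1066 genes were higher and 1751 lower, the median of all genes was -0.096, and 1 other imprinted gene was higher. Of the imprint maintenance genes, 1 was higher with DESeq2, with no filter and with a filter of 1 CPM in 3 libraries, and 0 were lower with median-of-ratios factors and with no filter. Over all exon bins limma called 218 (edgeR 51). For the 10 genes the fold changes moved by less than their standard errors under each other normalization, filter and tool, except that *Plagl1* was not tested with a filter of 1 CPM in 3 libraries. No paired analysis was possible because the labels give embryo numbers without pairing, and 1 wt and 1 deficient embryo share the first part of theirs, as do deficient replicates 2 and 3, without a stated meaning.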

Other observations

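Several of the factors that keep imprints through cell division were expressed in both genotypes, whereas *Zfp57* was at 0.144 to 0.45 CPM, *Ctcfl* had 2 to 7 reads per library and *Dppa3* had 0. Of 12 such genes listed, 10 were tested. By edgeR 0 rose and 1 fell at an adjusted p under 0.05 (9.32% of all tested genes rose and 9.85% fell). The median log2 fold change was 0.11. *Trim28*, the corepressor that binds imprinted regions together with KRAB zinc finger proteins and the list's gene with the highest CPM, had 741, 715 and 754 CPM in wt and 888, 758 and 775 CPM in deficient cells (log2 fold change 0.13 ± 0.09 (SE), edgeR adjusted p = 0.314). *Dnmt1*, the maintenance DNA methyltransferase, had 613 to 702 CPM in wt and 635 to 691 CPM in deficient cells, with overlap. *Arid4b*, a chromatin gene linked to imprinting, fell from 62.7 ± 3.31 to 51.4 ± 2.9 CPM (SD, n = 3 each, edgeR adjusted p = 0.0423), and this call was lost with median-of-ratios factors and with no filter. *Setdb1*, a histone methyltransferase, had 213, 159 and 191 CPM in wt and 250, 240 and 240 CPM in deficient cells (edgeR adjusted p = 0.0534).

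Markers of other cells in the fetal liver were counted by the same test, with 9.85% of all tested genes called lower and 9.32% called higher. Of 8 genes of hematopoietic stem and progenitor cells tested, 6 fell and 0 rose, with *Flt3* at 17.8, 44 and 28.2 CPM in wt and 2.86, 3.4 and 2.56 CPM in deficient cells (edgeR adjusted p = 0.00985). Of 8 macrophage markers tested 3 fell, of 10 endothelial markers 2 fell, of 10 erythroid markers 1 fell and of 6 mesenchymal markers 2 fell and 1 rose, and 0 of 6 granulocyte precursor markers and 0 of 1 neural marker passed by edgeR (unadjusted p under 0.05 in 0 of each). The part of these cells in the values of the imprinted genes was not tested.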
